A study of Mus musculus with 3 samples.

Results

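Cholesterol synthesis and its sterol-sensing switch are described here through 7 genes, Hmgcs1, Idi1, Fdft1, Sqle, Cyp51, Srebf2 and Insig1, taken by symbol from the 15058 genes of 2 deposited tables of erythroblast RNA. Erythroblasts are the nucleated precursors of red blood cells, and these were sorted from mouse embryo blood at E10.5. All 7 genes were in both tables, and all 7 lay above the limit for low counts in every comparison. In the Drosha-null library each of them stood above the control, by a median of 0.50 on the log2 scale, while all genes had a median of −0.02. In the Ter119-low library the median of the 7 was 0.02.

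There were 3 libraries, with 1 in each group and therefore no replicates. The control was CD71-positive Ter119-high cells of embryos labelled Drosha fl/fl or Drosha fl/+, with the abundance of Drosha given as WT. The Drosha-null library was CD71-positive Ter119-high cells of cKO (conditional knockout) embryos, Drosha fl/fl;cdh5-cre+, with Drosha given as null. The Ter119-low library came from cKO embryos of the same genotype, sorted as CD71-positive and Ter119-low, with Drosha given as abundant as WT. CD71 is the transferrin receptor, Ter119 an antigen of the red-cell surface gained with maturation, and Drosha the nuclease that starts the cutting of primary microRNA transcripts. The Cre recombinase is driven by Cdh5, an endothelial gene, so deletion in blood cells depends on their descent from endothelium. The design text describes pools of 5 embryos. The Ter119-low library differs from the control in both gate and genotype, and from the Drosha-null library in both gate and Drosha label, and these cannot be told apart.

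Cholesterol is built from acetyl-CoA through mevalonate, isoprenoid and squalene intermediates to lanosterol, which is then trimmed to cholesterol. When sterols in the endoplasmic reticulum fall, the Srebf2 product SREBP-2 is carried by Scap to the Golgi, cleaved, and sent to the nucleus, where it activates the genes of cholesterol synthesis and uptake. When sterols are plentiful, Insig proteins hold Scap and SREBP-2 back. Red cells have a cholesterol-rich membrane, and once mature they make none of their own.

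The library totals lay between 9325814 and 9497425 counts. The share of counts from globin and ribosomal RNA genes was 53.73% (control), 44.99% (Drosha-null) and 51.62% (Ter119-low). Scaling between libraries therefore matters for every ratio below, and it was done by TMM, which is meant to correct for such differences in composition. Without globin and ribosomal RNA genes in the totals, the median log2 ratio of all genes, Drosha-null over control, was 0.18, beside −0.02 by TMM. Drosha itself had 324 (control), 122 (Drosha-null) and 244 (Ter119-low) counts, log2 ratios to the control of −1.81 (interval −2.13 to −1.51) and −0.49 (−0.74 to −0.25), so the library labelled as abundant in Drosha also held less of it. All 13 erythroblast markers were detected in every library, and their summed level, mostly globin RNA, was 287246, 145127 and 249132 CPM (counts scaled by library size and TMM factor). In bulk RNA, fewer cells of a type and less RNA per cell cannot be told apart. Endothelial markers (9 of 9 detected in each library) summed to 81, 225 and 76 counts. Cardiac muscle markers (4, 6 and 4 of 7 detected, with Smyd1 at 0 in the control and Ter119-low libraries) summed to 74, 322 and 56. Both were highest in the Drosha-null library, as the 7 genes were, and their part in the ratios was not tested. Hepatocyte markers (0, 1 and 2 of 9 detected) summed to 0, 4 and 3 counts, and Alb and Afp were at 0 or not listed in all 3 libraries. Yolk sac endoderm markers (2, 3 and 2 of 9 detected) summed to 6, 13 and 5 counts. Macrophage markers (7, 8 and 3 of 10) summed to 50, 62 and 24, with Ptprc and C1qa at 0 or not listed, and mesenchyme markers (6, 7 and 6 of 7) to 94, 139 and 90. Megakaryocyte and platelet markers (6, 5 and 5 of 8) summed to 116, 215 and 150 counts, of which Itga2b gave 79, 126 and 96.

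SREBP-2 acts through a sterol regulatory element in target promoters, together with NF-Y, which binds CCAAT boxes, and Sp1, which binds GC boxes. RefSeq promoter windows on GRCm38.p6, from 250 bases before the start site to 50 after it, were found for 5 of the 7 genes: Hmgcs1, Idi1, Cyp51, Srebf2 and Insig1. They were searched on both strands for an 8-letter core of the element, TCACNCCA, for CCAAT and for GGGCGG. Of all 32851 windows in the table, 4.36% held TCACNCCA, 37.4% CCAAT and 35.7% GGGCGG. The windows of Hmgcs1, the gene with the largest ratio, of Srebf2, the gene with the smallest, and of Idi1, an enzyme gene with no match to the core, are shown with every match in capitals. They lie at chr13:119690101-119690400, chr15:82147019-82147318 and chr13:8885356-8885655, all on the plus strand.
Hmgcs1: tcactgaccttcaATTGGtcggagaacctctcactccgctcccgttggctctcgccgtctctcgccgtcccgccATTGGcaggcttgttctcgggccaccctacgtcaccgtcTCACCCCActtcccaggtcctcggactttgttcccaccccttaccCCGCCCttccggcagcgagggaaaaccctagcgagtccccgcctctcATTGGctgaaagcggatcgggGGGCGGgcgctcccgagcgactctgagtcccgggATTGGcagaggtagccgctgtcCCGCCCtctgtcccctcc
Srebf2: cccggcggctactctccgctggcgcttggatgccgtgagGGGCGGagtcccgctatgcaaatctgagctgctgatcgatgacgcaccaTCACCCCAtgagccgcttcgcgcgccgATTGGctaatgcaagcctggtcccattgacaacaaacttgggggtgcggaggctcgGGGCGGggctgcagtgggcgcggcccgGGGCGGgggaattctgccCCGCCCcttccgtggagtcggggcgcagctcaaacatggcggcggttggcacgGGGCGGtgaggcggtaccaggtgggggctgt
Idi1: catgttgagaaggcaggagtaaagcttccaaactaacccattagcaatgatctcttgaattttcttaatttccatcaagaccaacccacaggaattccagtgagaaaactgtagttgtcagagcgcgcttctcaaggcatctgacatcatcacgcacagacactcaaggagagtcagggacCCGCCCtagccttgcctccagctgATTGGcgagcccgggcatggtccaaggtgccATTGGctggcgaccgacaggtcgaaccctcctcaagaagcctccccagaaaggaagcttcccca

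The Hmgcs1 window held 1 TCACNCCA match, which begins 137 bases before the start site, with 4 CCAAT and 3 GGGCGG matches. In the Srebf2 window the 1 TCACNCCA match begins 162 bases before the start, beside 1 CCAAT and 5 GGGCGG matches. Both matches read TCACCCCA on the plus strand and overlap no other match. The Idi1 window had 2 CCAAT and 1 GGGCGG matches, Insig1 had 1 and 3, and Cyp51 had 1 and 1, with none of the core in these 3 windows. A CCAAT match and a GGGCGG match were thus each present in 5 of 5 windows. These are matches of letters in a short window and show no binding. The search took only TCACNCCA, so a window without a match is not shown to lack the element.

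Hmgcs1 (chromosome 13, 119690379 to 119708260, plus strand, GRCm38, GENCODE M21) encodes the cytosolic HMG-CoA synthase, which condenses acetyl-CoA with acetoacetyl-CoA early in the pathway. Its counts were 151 (control), 400 (Drosha-null) and 163 (Ter119-low), or 18.0, 35.9 and 18.3 CPM. The Drosha-null library alone was high, and the other 2 were within counting error of each other. The ratio to the control was 1.99-fold (95% Clopper-Pearson counting interval 1.65 to 2.42) in the Drosha-null library, and 1.02-fold (0.811 to 1.28) in the Ter119-low library. Such intervals cover counting error only, not the spread between pools. PCR copies are not told apart in these reads, and any copies counted would make the intervals too narrow.

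Idi1 (chromosome 13, 8885501 to 8892451, plus strand) encodes isopentenyl-diphosphate isomerase, which makes the allylic starter unit of isoprenoid chains. Its counts, in the same order, were 511, 1026 and 575, or 60.8, 92.1 and 64.5 CPM. Again the Drosha-null library was high, 1.51-fold over the control (1.36 to 1.69), and the Ter119-low library had a log2 ratio of 0.09 (−0.09 to 0.26).

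Fdft1 (chromosome 14, 63145150 to 63179578, minus strand) encodes squalene synthase, the first enzyme committed to sterols. It had 483, 845 and 454 counts, or 57.5, 75.8 and 51.0 CPM. The Drosha-null library was 1.32-fold over the control (1.18 to 1.48), and the Ter119-low library, the lowest of the 3, stood at 0.887-fold (0.778 to 1.01). Its exons overlap those of Ctsb, a gene on the other strand, by up to 774 bases. Ctsb had 2886, 3050 and 2755 counts, and whether counting used strand is not given in the sources used here.

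Sqle (chromosome 15, 59315077 to 59331192, plus strand) encodes squalene epoxidase, an oxygen-dependent and rate-limiting step. It had 486, 912 and 528 counts, or 57.8, 81.8 and 59.3 CPM, which put the Drosha-null library 1.41-fold over the control (1.27 to 1.58). The Ter119-low library stood at 1.02-fold (0.904 to 1.16). Of the 7 genes, Sqle lay closest to the median pattern.

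Cyp51 (chromosome 5, 4081145 to 4104746, minus strand) encodes lanosterol demethylase, which begins the trimming of lanosterol. Its 401, 815 and 430 counts, or 47.7, 73.1 and 48.3 CPM, gave 1.53-fold in the Drosha-null library (1.36 to 1.73) and 1.01-fold in the Ter119-low library (0.881 to 1.16), both over the control. In all 5 enzyme genes the Drosha-null library was thus the highest of the 3. Cyp51 exons overlap those of Akap9, on the other strand, by up to 166 bases, and Akap9 had 894, 1266 and 984 counts.

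Srebf2 (chromosome 15, 82147181 to 82205379, plus strand) encodes SREBP-2, the regulator of this pathway. Its counts were 851, 1285 and 840 in the 3 libraries, in the same order, or 101, 115 and 94.3 CPM. Its 1.14-fold ratio in the Drosha-null library (1.04 to 1.24) was the smallest of the 7, and the Ter119-low library stood at 0.931-fold (0.845 to 1.03).

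Insig1 (chromosome 5, 28071363 to 28078662, plus strand) encodes the sterol-regulated protein that holds back Scap and SREBP-2, and it is itself a known SREBP target. It had 136, 221 and 124 counts, or 16.2, 19.8 and 13.9 CPM. Drosha-null over control it gave 1.22-fold, and the interval included 1 (0.985 to 1.53), while Ter119-low over control gave 0.860-fold (0.669 to 1.11). By TMM, Insig1 therefore could not be told from the control in either library. By total counts its Drosha-null log2 ratio was 0.72 (0.41 to 1.05), and its interval also lay above 0 by DESeq2 size factors and by total counts without globin and ribosomal RNA genes. All 7 genes carried whole counts in every library, with no reads split between similar genes.

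**Figure D1:**
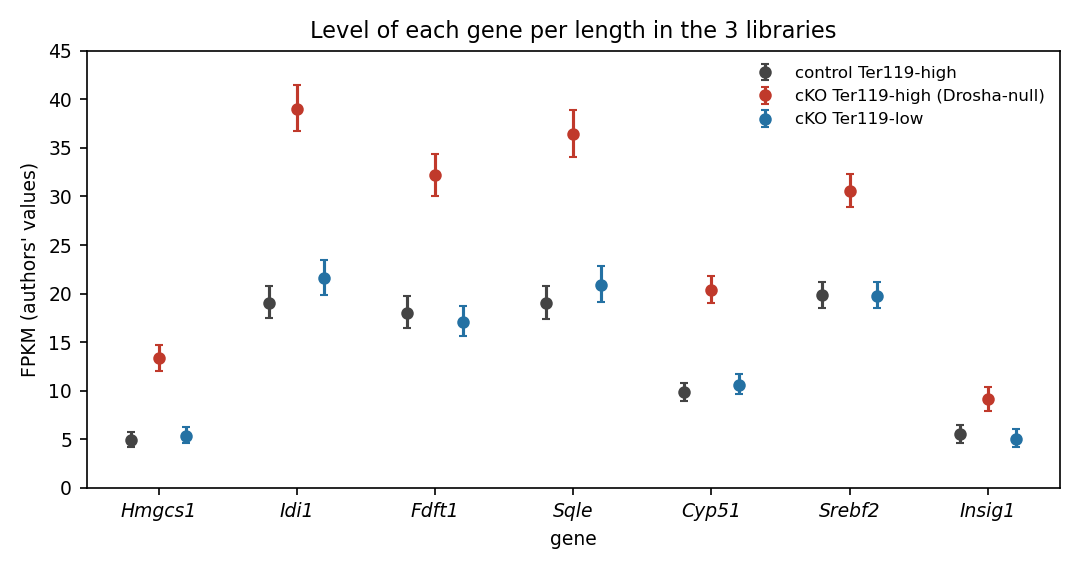
FPKM of each of the 7 genes (y axis, from 0) in the 3 libraries; points are the authors' deposited values of 1 library each and bars the exact 95% Poisson interval of the counts behind them. FPKM is scaled by library size without a correction for composition, and on it the Drosha-null point lies above the other 2 for every gene, from 9.11 for Insig1 to 39.05 for Idi1.

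Levels between genes were compared per length, by the authors' FPKM, which scales fragments by gene length and library size. In the control, Srebf2 (19.86), Idi1 (19.07), Sqle (19.05) and Fdft1 (18.03) did not differ beyond their counting intervals between neighbours in this order. Cyp51 (9.83) was lower than Fdft1, and Insig1 (5.50) and Hmgcs1 (4.93) were lower again and overlapped each other. The Ter119-low library had a similar order, with Idi1 at 21.65, Sqle at 20.89, Srebf2 at 19.77, Fdft1 at 17.10, Cyp51 at 10.63, Hmgcs1 at 5.37 and Insig1 at 5.06, and overlaps among the top 4 neighbours and between the last 2. In the Drosha-null library Idi1 (39.05), Sqle (36.46), Fdft1 (32.17) and Srebf2 (30.56) came first, with Srebf2 now the fourth. Cyp51 followed at 20.37, and Hmgcs1 (13.32) lay above Insig1 (9.11) with intervals that did not overlap.

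The Drosha-null and control libraries share a gate but differ in embryo genotype as well as in Drosha label, and these cannot be told apart. A gene was called when it differed by 2-fold or more, up or down, with a counting interval that excluded 1, and no test across conditions was possible with 1 library a group. By this rule 0 of the 7 genes were called in either direction, against 12.4% higher and 7.79% lower among all 10769 measured genes. Hmgcs1 missed the size rule by little, at 1.99-fold. At a size rule of 1.5-fold, 3 of the 7 were called higher, namely Hmgcs1, Idi1 and Cyp51, where 19.5% of all genes were. The interval alone lay wholly above 1 for 6 of the 7, all but Insig1, where it did so for 29.1% of all genes. Next to Hmgcs1 (fold 1.99), the log2 ratios were 0.61 for Cyp51, 0.60 for Idi1, 0.50 for Sqle, 0.40 for Fdft1, 0.29 for Insig1 and 0.19 for Srebf2. Of all measured genes, 13.4% had a ratio above that of Hmgcs1 and 38.5% one above that of Srebf2. Among 1381 genes with lengths (2667 to 4570 bases) and mean levels (16.6 to 104 CPM) inside the range of the 7, the median log2 ratio was −0.02, and 4.63% were called higher.

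Under the 4 scalings run the direction of the 7 was the same, but their calls differed. Scaled by total counts, 3 of the 7 were called higher, where 23.0% of all genes were: Hmgcs1 at a log2 ratio of 1.43, Cyp51 at 1.05 and Idi1 at 1.03. Hmgcs1 was the 1 gene of the 7 called by DESeq2 size factors, where 12.6% of all genes were called higher, and by total counts without globin and ribosomal RNA genes, where 16.0% were. By the size rule alone on FPKM 3 of the 7 passed, where 21.7% of all genes did. Total counts moved the median of all genes to 0.43, and the median of the 7 to 0.93. Relative to the median of all genes the 7 stood 0.52 higher by TMM, 0.50 by total counts, 0.52 by DESeq2 size factors and 0.51 by total counts without globin and ribosomal RNA genes. The counts of the 7 summed to 3019 (control) and 5504 (Drosha-null), a TMM log2 ratio of 0.46 (0.39 to 0.52).

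**Figure D2:**
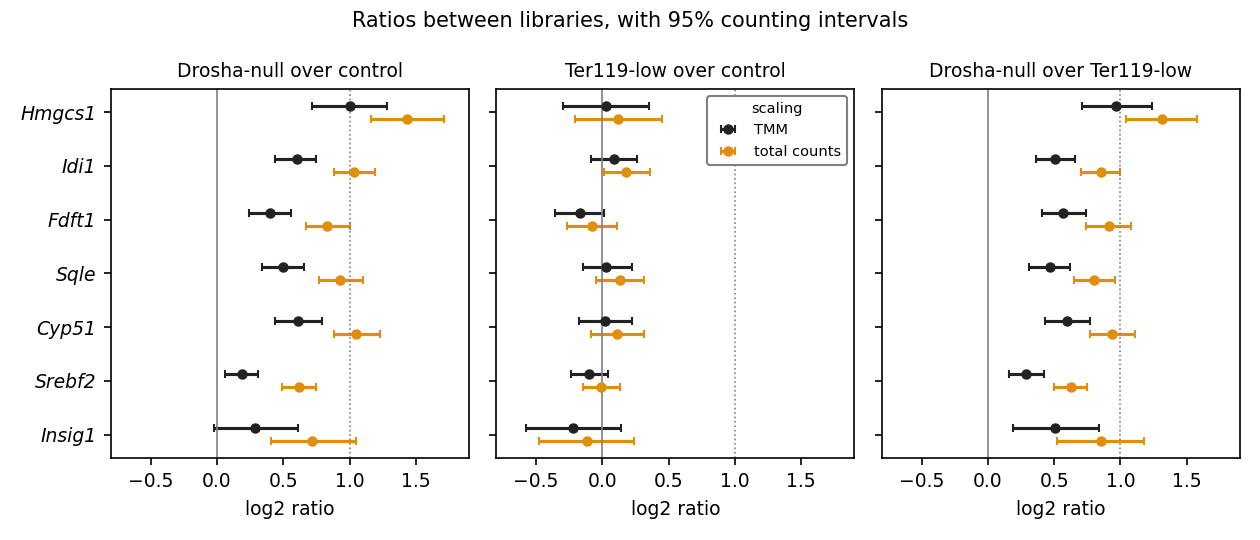
Log2 ratios of the 7 genes (x axis) in the 3 comparisons, with 95% counting intervals; black is TMM scaling, orange total counts, the dotted line the 2-fold rule. The Drosha-null ratios lie to the right of 0 in the left and right panels under both scalings, from 0.19 to 1.43, while in the middle panel the TMM ratios of the Ter119-low library span 0 (−0.22 to 0.09).

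The Ter119-low comparison with the control differed in gate and genotype, and here the 7 genes spread around 0. By TMM 4 of 7 lay above 0 and 3 below, from −0.22 for Insig1 to 0.09 for Idi1. None of the 7 was called in either direction, where 2.90% of 10591 genes were called higher and 2.76% lower. The interval excluded 0 for 0 of the 7, where it lay wholly above 0 for 13.5% of all genes and wholly below for 14.2%. The summed counts of the 7 were 3114, at a log2 ratio of −0.04 (−0.11 to 0.03). By total counts the interval of 1 gene, Idi1, lay above 0 (0.18, 0.01 to 0.36). Both comparisons share the control library, so their values are given side by side and not as repeats of each other.

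The cKO libraries were also set against each other. These ratios use the same Drosha-null library as above, with TMM factors from all 3 libraries. They follow from the ratios to the control and are no repeat of them. Drosha-null over Ter119-low, all 7 genes lay above 0 by TMM, with a median log2 ratio of 0.51 and intervals that excluded 0 for 7 of 7, where 27.4% of 10795 genes had an interval wholly above 0. Hmgcs1 was the highest at 0.97 (0.71 to 1.24), followed by Cyp51 at 0.60 (0.43 to 0.77), Fdft1 at 0.57 (0.41 to 0.74), Idi1 at 0.51 (0.36 to 0.66), Insig1 at 0.51 (0.19 to 0.84), Sqle at 0.47 (0.31 to 0.62) and Srebf2 at 0.29 (0.16 to 0.42). Insig1, which overlapped 0 against the control, did not do so here. None of the 7 was called at 2-fold, where 10.8% of all genes were called higher and 5.94% lower. At 1.5-fold 2 of 7 were called, Hmgcs1 and Cyp51, where 18.2% of all genes were. By total counts Hmgcs1 (1.31) was called higher at 2-fold, where 18.7% of all genes were. Without globin and ribosomal RNA genes in those totals 1 of 7 was called, where 14.1% of all genes were, and on FPKM 1 of 7 passed, where 17.4% did.

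The share of each gene in the summed counts of the 7 does not depend on how libraries are scaled. Hmgcs1 took 5.0% of the control sum (exact binomial interval 4.25% to 5.84%), 7.27% of the Drosha-null sum (6.60% to 7.99%) and 5.23% of the Ter119-low sum (4.48% to 6.08%). Its interval in the Drosha-null library lay above both others. Srebf2 went the other way, with 28.2% (26.6% to 29.8%), 23.3% (22.2% to 24.5%) and 27.0% (25.4% to 28.6%), and its Drosha-null interval lay below both others. For Idi1 (16.9%, 18.6% and 18.5%), Fdft1 (16.0%, 15.4% and 14.6%), Sqle (16.1%, 16.6% and 17.0%), Cyp51 (13.3%, 14.8% and 13.8%) and Insig1 (4.50%, 4.02% and 3.98%) the intervals of the 3 libraries overlapped. The 7 genes were therefore unequal in the Drosha-null library: the synthase gene gained and the regulator gene lost share.

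**Figure D3:**
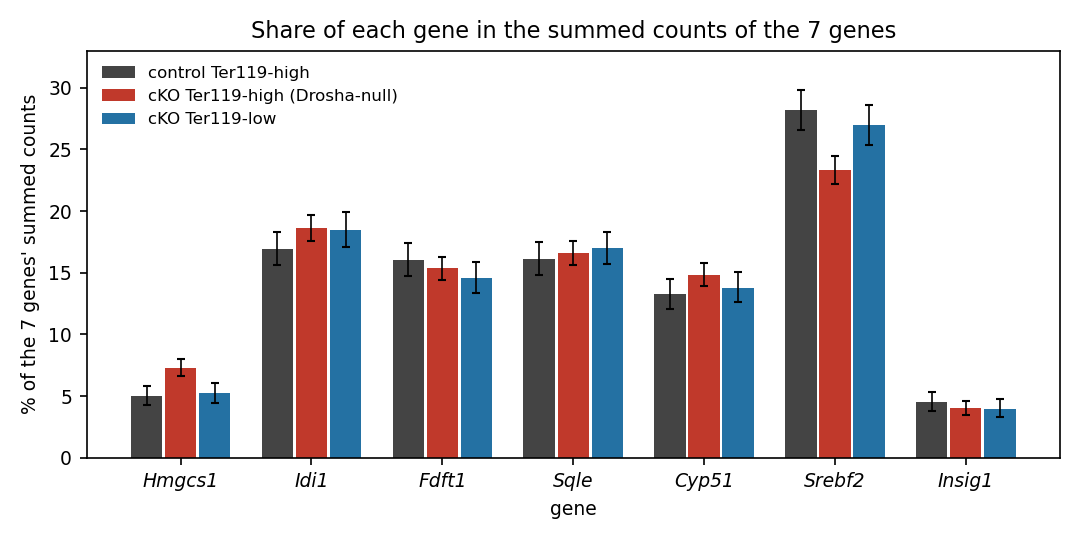
Share of each gene in the summed counts of the 7 genes (y axis, percent, from 0) in each library, with exact 95% binomial intervals of the counts. Hmgcs1 is highest in the Drosha-null library, at 7.27%, and Srebf2 lowest there, at 23.3%.

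The other enzymes of the pathway came from a list of 22 synthesis genes, of which 17 are not among the 7 and 16 of those were measured. In the Drosha-null library 3 of these 16 passed the rule upward and 1 downward, at a median log2 ratio of 0.35, and by total counts 7 and 1, at a median of 0.78. Over all genes 12.4% were called higher and 7.79% lower by TMM, and 23.0% higher by total counts, so 3 and 1 of 16 lie near the background. Among those called higher, Mvk, the mevalonate kinase gene, had 23, 77 and 46 counts (control, Drosha-null, Ter119-low; log2 ratio 1.31 in the Drosha-null library). Acat2, for the acetoacetyl-CoA thiolase at the start of the pathway, had 160, 428 and 169 counts (1.01), but some of them were fractional, so its value is uncertain.

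Of the 16, 11 lay above 0 and 5 below in the Drosha-null library by TMM. Msmo1 (listed as Sc4mol), a sterol methyl oxidase gene, stood at 0.69 with 124, 266 and 103 counts, and Mvd, the mevalonate diphosphate decarboxylase gene, at 0.53. Fdps, the farnesyl diphosphate synthase gene and the most abundant of the list per length (36.55, 53.97 and 40.91 FPKM), stood at 0.13. Dhcr7, for a reductase that finishes cholesterol, stood at 0.17. Lss, which closes the ring between Sqle and Cyp51, stood at −0.26 by TMM and 0.17 by total counts. Lbr, a nuclear envelope protein gene that also encodes a sterol reductase, stood at −0.53 with 1139, 1049 and 1154 counts. Tm7sf2, the other gene for that reductase step, was the 1 enzyme gene called lower, with 14, 3 and 12 counts (ratio 0.182, 0.0298 to 0.579). In the Ter119-low library 0 of the 16 were called, with a median of −0.01, beside 2.90% of all genes higher and 2.76% lower. Drosha-null over Ter119-low, where 10.8% of all genes were called higher and 5.94% lower, Acat2 (1.02) and Msmo1 (1.04) were called higher and Tm7sf2 lower (ratio 0.224, 0.0362 to 0.741).

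Among 17 genes of sterol sensing and SREBP processing, 16 were measured, Srebf2 and Insig1 included, and in the Drosha-null library 3 were called higher and 1 lower (median 0.29), near the shares over all genes of 12.4% and 7.79%. Those called higher encode proteins that limit synthesis or uptake. Mylip, also known as Idol, encodes a ubiquitin ligase that limits lipoprotein uptake, and it had 105, 410 and 169 counts (1.55). Erlin2 (204, 635 and 272 counts, 1.23) and Erlin1 (68, 192 and 109, 1.08) encode membrane proteins of endoplasmic reticulum protein degradation. Nr1h2, for the sterol-activated nuclear receptor LXR-beta, was called lower by TMM (188, 121 and 175 counts, −1.04) but not by total counts (−0.61). Scap, the escort of SREBP-2, had 109, 239 and 163 counts (0.72). Srebf1, which encodes the SREBP-1 forms that favour fatty acid genes, stood at 0.05 with 188, 259 and 179 counts, and Insig2 at 0.16. Against the control, 0 of the 16 were called in the Ter119-low library (median −0.08), beside 2.90% of all genes higher and 2.76% lower. Drosha-null over Ter119-low, Pgrmc1, a membrane heme-binding protein gene, was called higher (1.39), beside 10.8% of all genes.

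Uptake was represented by a list of 19 genes of uptake and intracellular transport. Among 16 measured, 3 were called higher and 0 lower in the Drosha-null library (median 0.23), beside 12.4% and 7.79% of all genes. Among these were Scarb2, a lysosomal membrane protein gene (7, 51 and 22 counts, 2.37), and Gramd1a, a sterol transporter gene of membrane contact sites (19, 108 and 33, 2.07). Npc1, which exports cholesterol from lysosomes, stood at 0.80, and the HDL receptor gene Scarb1 at 0.49. Tmem97, the most abundant of the list per length, stood at −0.49 by TMM and −0.06 by total counts. In the Ter119-low library Scarb2 (2.83-fold, 1.22 to 8.21) was called higher, beside 2.90% of all genes. Drosha-null over Ter119-low, Gramd1a (1.37) and the lysosomal acid lipase gene Lipa (1.10) were called higher, beside 10.8% of all genes.

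The efflux and storage list held 13 genes, of which 11 were in the tables and 9 were measured against the control, and 2 were called higher and 2 lower in the Drosha-null library (median −0.56), beside 12.4% and 7.79% of all genes. Soat1, which esterifies cholesterol for storage, had 5, 38 and 14 counts (2.40), some of them fractional, and Nceh1, which hydrolyses such esters, had 19, 57 and 10 (1.15). Apoe, the apolipoprotein E gene, had 22, 1 and 8 counts, a Drosha-null ratio of 0.0503 (0.000830 to 0.212), and Lcat, for an enzyme that esterifies cholesterol in plasma, had 27, 5 and 13 (−2.73). Abcg4, a sterol transporter gene, was the most abundant (592, 611 and 593 counts), and Abca1, the main cholesterol exporter, had 19, 17 and 3. In the Ter119-low library Apoe (−1.49), Lcat (−1.11) and Abca1 (ratio 0.169, 0.0282 to 0.506) were called lower than in the control. Of all genes, 2.76% were called lower and 2.90% higher in that comparison. Drosha-null over Ter119-low, Soat1 (1.09), Nceh1 (2.13) and Abca1 (interval 1.31 to 24.1 as a fold) were called higher. Lcat (−1.62) was called lower there by TMM but not by total counts. Between the cKO libraries 10.8% of all genes were called higher and 5.94% lower by TMM.

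**Figure D4:**
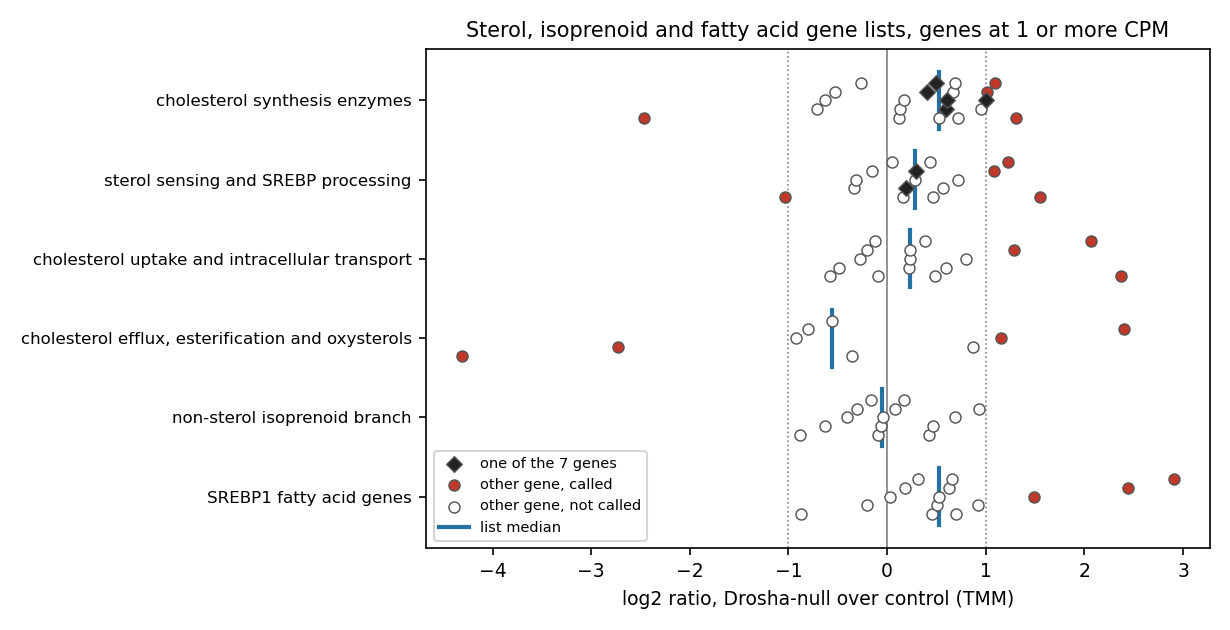
Log2 ratio, Drosha-null over control by TMM (x axis), of each measured gene in 6 lists (rows); diamonds are the 7 genes, red points other genes called, open points genes not called, the blue line the list median and dotted lines the 2-fold rule. List medians run from −0.56 for efflux and esterification to 0.53 for synthesis enzymes and fatty acid genes, beside −0.02 for all genes. The median of the synthesis enzymes includes those among the 7 genes, and without them it is 0.35.

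The genes nearest to the median pattern of the 7 were sought among 4228 genes, the 7 aside, whose control level reached 20 CPM, by Euclidean distance over the log2 ratios of the 2 cKO libraries to the control (0.50 and 0.02 for the median of the 7). The 6 nearest were Fasn (distance 0.00682, ratios 0.51 and 0.01), Bcorl1 (0.0121), B3galtl (0.0123), Rbl2 (0.0130), Scarb1 (0.0143) and Ssbp2 (0.0163). Fasn encodes fatty acid synthase, with 1231, 2319 and 1317 counts. Such a pattern was common, since 87 genes (2.06%) lay within 0.1 of it and 302 (7.14%) within 0.2. The 7 genes themselves lay between 0.0189 (Sqle) and 0.495 (Hmgcs1) from their median.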

How the data were processed

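Total RNA of erythroblasts from 3 sorted pools was sequenced, and samples were grouped by their labels. The authors deposited 2 tables, each pairing the control with 1 cKO library. They hold, per the file headers, the authors' expected counts per gene (estimated reads before scaling, used here rounded) and FPKM made by the authors, with 0.001 at 0 counts. Gene length was also deposited by the authors in bases. Aligner, counter and build: not given in the sources used here. Joining was by gene ID (13882 genes in both, 0 with differing control counts), and genes listed in 1 table alone were given 0 counts in the other.

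Factors of TMM from edgeR 4.0.16 (R 4.3.3) were 0.885 (control), 1.19 (Drosha-null) and 0.946 (Ter119-low). Log2 ratios have 0.5 counts added and a Clopper-Pearson interval at 95%, over genes that reached 1 CPM in at least 1 library of the pair. The ratio, interval and call were run on simulated Poisson counts scaled by library totals. That run held no spread between pools and did not include TMM, so it cannot speak to either. Fractional values of a gene mark reads shared with similar genes. Of 103 entries in 6 pathway lists, 100 were in the tables, matched by symbol or through RefSeq synonyms. Other scalings (DESeq2 1.42.0 size factors among them), filters, added counts and size rules were alternatives. The members, lists and alternatives were chosen with earlier results of these data known. Named were the 7 genes, Drosha, all list genes called, the 2 most abundant per list in FPKM, some pathway genes set by name, and the 6 genes of nearest pattern, provisional symbols left out. Some genes of the lists are not reported here by name. Scripts ran in Python 3.11.15 with pandas 2.3.3, SciPy 1.17.1, NumPy 2.4.6 and matplotlib 3.10.9.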

Additional observations from a re-analysis of the deposited data

How the results depend on the processing

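No paired analysis was possible because each group holds 1 library, and no library could be left out. Every one of the 7 genes kept its direction against the control and between the cKO libraries under the 5 alternatives run on single genes. For the Drosha-null library over the control, 0 of 7 genes called became 3 by total counts, 1 by DESeq2 size factors, 1 by total counts without globin and ribosomal RNA genes, 3 by FPKM and 3 at 1.5-fold, where 23.0%, 12.6%, 16.0%, 21.7% and 19.5% of all genes were called higher. The median of the 7 moved from 0.50 to 0.93 by total counts, 0.68 without globin and ribosomal RNA genes and 0.93 by FPKM. Of 21 measured synthesis enzymes, those among the 7 included, 4 were called in either direction, 3 of them higher. The number called became 11 by total counts (10 higher), 11 by FPKM (10 higher), 13 at 1.5-fold (10 higher) and 1 at 3-fold (0 higher). Of all genes, 23.0% were called higher by total counts, 21.7% by FPKM and 19.5% at 1.5-fold. The median of these enzymes, 0.53, became 0.96 by total counts and 0.94 by FPKM. For Drosha-null over Ter119-low, 0 of 7 became 1 by total counts, 1 without globin and ribosomal RNA genes, 1 by FPKM and 2 at 1.5-fold, and the median of 0.51 became 0.85 by total counts and 0.85 by FPKM. Of the synthesis enzymes 3 were called, 2 of them higher. This became 7 by total counts (6 higher), 5 without globin and ribosomal RNA genes (4 higher) and 7 by FPKM (6 higher). At 1.5-fold it was 9 (7 higher) and at 3-fold 1 (0 higher). Of all genes, 18.7% were called higher by total counts, 14.1% without globin and ribosomal RNA genes, 17.4% by FPKM and 18.2% at 1.5-fold. The median of the enzymes, 0.47, became 0.80 by total counts and 0.79 by FPKM. For Ter119-low over the control, 0 enzymes called became 1 at 1.5-fold, called higher. Filters of 0 or 5 CPM and 5 added counts moved none of these past their limits. With 1 library a group, the spread between pools is unknown, and Insig1, at 136 counts in the control, has the widest interval of the 7.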

Other observations

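Of 15 measured fatty acid genes, which share SREBP control with sterol genes, 3 were called higher than the control and 0 lower in the Drosha-null library, beside 12.4% and 7.79% of all genes. By TMM 13 of the 15 lay above 0 and 2 below, from −0.87 to 2.91, with a median log2 ratio of 0.53 beside −0.02 for all genes. By total counts 7 were called higher, beside 23.0% of all genes, with a median of 0.97 beside 0.43. Lpin1, for a phosphatidate phosphatase, had 11, 114 and 17 counts (control, Drosha-null, Ter119-low; 7.51-fold over the control, 4.21 to 16.1). Me1, the cytosolic malic enzyme gene that supplies NADPH, had 21, 154 and 20 counts (5.42-fold, 3.49 to 9.19), and the fatty acid elongase gene Elovl5 had 69, 259 and 102 (log2 ratio 1.49). The desaturase genes Fads1 (652, 1192 and 711 counts) and Fads2 (313, 469 and 349), the most abundant of the list per length, stood at 0.46 and 0.18. In the Ter119-low library 0 of 15 were called, with a median of 0.07, beside 2.90% of all genes higher and 2.76% lower. Drosha-null over Ter119-low, Me1 (2.59), Lpin1 (2.39) and Elovl5 (1.02) were called higher, beside 10.8% of all genes.

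The branch that leads from the shared isoprenoid precursors to ubiquinone, dolichol and prenylated proteins had 14 measured genes. Against the control, 0 of the 14 were called in the Drosha-null library, beside 12.4% of all genes higher and 7.79% lower. By total counts 2 were called higher, beside 23.0% of all genes. The median log2 ratio was −0.05 by TMM and 0.38 by total counts, beside −0.02 and 0.43 for all genes. Rabggtb and Fnta, subunit genes of protein prenyl transferases and the most abundant of this list per length, stood at −0.41 and −0.09 by TMM. Pdss2, which takes part in making the ubiquinone tail, was called higher in the Ter119-low library (18, 39 and 42 counts, 1.12). Of all genes, 2.90% were called higher there. Drosha-null over Ter119-low, the farnesyl transferase subunit gene Fntb was called higher (78, 198 and 60 counts, 1.39) and Rabggta lower (48, 41 and 87, −1.40). Between these libraries 10.8% of all genes were called higher and 5.94% lower.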
